A study of Sus scrofa with 9 samples.

Results

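Porcine embryonic fibroblasts (PEF), the matrix-forming cells that grow out of embryonic connective tissue in a dish, were compared 72 h after insulin was added and at 0 h, over all measured genes. The comparison takes 6 of the study's 9 libraries, 3 titled as PEF control and 3 titled as PEF treated with insulin for 72 h, and the titles alone chose them. The control cells were untreated and collected at 0 h, after thawing and culture. The 72 h cells came from the same kind of culture with insulin present for 72 h, and 3 further libraries at 48 h of insulin serve below as the nearest other condition. No genotype, breed, sex or donor embryo is named for any group, and the sources used here give no insulin dose, medium or number of PEF lines. The submitters describe the 3 samples of each time as biological replicates, and p values measure the spread between these samples. Untreated cells kept in culture for 72 h were not analysed here, so that the effect of insulin and the effect of time in culture cannot be told apart in any difference below. The study's title asks which metabolism genes respond to insulin.

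Insulin binds its receptor, a tyrosine kinase of the cell surface, and signals through IRS proteins to PI3K and AKT and, in parallel, to the RAS and ERK kinases. AKT promotes glucose uptake and protein synthesis, keeps the FOXO transcription factors out of the nucleus and raises SREBF1, the factor that drives fatty acid synthesis. ERK signalling induces the immediate early genes, and in cultured fibroblasts growth factors, cell density and nutrient supply also set how many cells divide and how much matrix they make.

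Levels are given as FPKM, fragments per kilobase of transcript scaled to the mapped fragments of a library, so that genes can be compared per length. Changes are differences of log2(FPKM + 1), written as log2 changes with the standard error, and this scale understates the change of low genes. A gene was called when the p value of limma, a linear model fitted to 11063 genes with all 9 libraries, fell below 0.05 after Benjamini-Hochberg adjustment over all these genes. The FPKM of all genes summed to 487858 to 497665 in the 0 h libraries and to 505022 to 525471 at 72 h, and read depth is unknown. Between 10797 and 10819 genes reached an FPKM of 1 in each of the 6 libraries. Libraries of 1 time correlated at 0.9904 or more in log2 values, and a 0 h with a 72 h library at 0.9649 at most.

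Both groups carried the RNA of fibroblasts. The 12 fibroblast markers, all of them tested, summed to 21902 to 22828 FPKM at 0 h and 22596 to 22993 at 72 h, with 7 members higher, 1 lower and 4 not called. The markers PTPRC and CD3E of blood cells, CD163 of macrophages and CDH5 of endothelium were listed at 0 in all 6 libraries. EPCAM of epithelium reached 0.08 FPKM at most, RGS5 of pericytes 0.04 and MYOD1 of skeletal muscle 0.11. Other members of the muscle and pericyte lists were abundant: the 12 skeletal muscle markers summed to 1431 to 1462 FPKM at 0 h and 793 to 997 at 72 h, most of it DES, desmin, with means of 1440 and 919. These marker genes were chosen as examples after their values were seen.

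At 72 h, 2542 genes were higher than at 0 h (23.0% of those tested) and 2487 were lower (22.5%). Changes of at least 1 on the log2 scale numbered 237 among the higher genes (2.14%) and 339 among the lower (3.06%). The median gene changed by -0.01, and the median standard error was 0.09. Higher genes made up 50.5% of the calls, 60.7% when the libraries were centred on their median gene and 42.4% with equal FPKM sums. The levels of the 0 h and 72 h libraries did not overlap for 58.6% of all genes, which is the background for the statements on overlap below. The shares of 23.0% higher and 22.5% lower are likewise the background for the counts of list members. Some genes were tested only because they reached 1 FPKM in groups where they were high, so their calls and lack of overlap are descriptive. Of genes named below, CYP1A1, HEY1 and ACAN reached it only at 0 h, and HES4 only at 0 h and 48 h. C3, RSPO1, MGST1, GHSR, DLL1, STC1 and APOE reached it only with insulin.

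**Figure D1:**
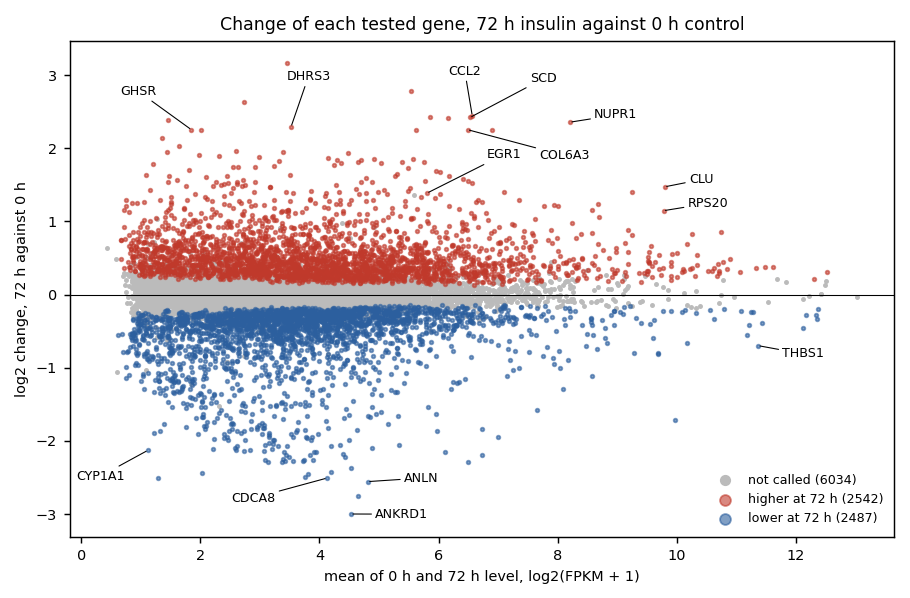
The log2 change from 0 h to 72 h (vertical axis) of each of the 11063 tested genes is plotted against its mean level over the 6 libraries in log2(FPKM + 1) (horizontal axis), with called genes in red (higher, 2542) and blue (lower, 2487). ANKRD1 at -3.00 and CDCA8 at -2.51 lie near the lower edge of the points and AMCF-II at 3.16 at the upper edge.

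Genes of cell division were lower almost without exception. Of 56 tested mitosis genes 55 were lower, none was higher, and the list's median was -1.93 against -0.01 over all genes. Summed over the 57 mitosis genes of the files, the level went from 1793 ± 58.2 FPKM (SD, n = 3) to 449 ± 32.2. BUB3, a spindle checkpoint protein, was the member not called, at 44.0 ± 3.69 and 38.1 ± 1.79 FPKM. CDCA8 (ENSSSCG00000032909, chromosome 6, 93750694 to 93764845 in the RefSeq annotation of Sscrofa11.1), a subunit of the chromosomal passenger complex, stood at 39.5, 41.1 and 41.1 FPKM at 0 h. Its 72 h libraries stood at 6.27, 6.51 and 6.15, all far below the lowest control, a log2 change of -2.51 ± 0.06 (limma, adjusted p = 3.07e-09). In bulk RNA, fewer cells in division and less of these transcripts in each cell cannot be told apart.

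ANLN, the anillin that organises the contractile ring of cytokinesis, changed by -2.55 ± 0.11 and CKAP2, a spindle protein, by -2.49 ± 0.12. The kinesin motor KIF11, which pushes spindle poles apart, went from 31.7 ± 1.01 to 5.03 ± 0.711 FPKM. PRC1, which bundles microtubules in the midzone, went from 41.5 ± 0.833 to 6.93 ± 0.695, and TOP2A, the topoisomerase that untangles sister chromosomes, changed by -2.37 ± 0.11. CDC20, the activator of the anaphase-promoting complex, had 66.9, 62.2 and 64.8 FPKM against 17.1, 21.3 and 16.7 (-1.77 ± 0.09). CDCA3, an ubiquitin ligase adaptor for entry into mitosis, had 65.4, 57.7 and 66.8 FPKM at 0 h and 7.39, 11.4 and 7.24 at 72 h. It changed by -2.75 ± 0.14, and its second 72 h library was the highest of the 3.

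Replication genes were lower too. Of 50 tested members 49 were lower and none was higher, with a median of -1.08, and the exception POLD2, a subunit of DNA polymerase delta, was low at both times, with 5.36 ± 0.530 and 4.67 ± 0.665 FPKM. The largest falls were in E2F8, an E2F factor of S phase (-1.99 ± 0.07), ASF1B, a histone chaperone (-1.99 ± 0.09), and CDC45, part of the replicative helicase (-1.95 ± 0.09). Calls among the regulators of G1 were about as frequent as over all genes (23.0% higher and 22.5% lower). Among 34 tested G1 cyclins, CDK inhibitors and p53 targets 8 were higher, 9 were lower and 17 were not called.

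CDKN2C, the CDK4 and CDK6 inhibitor p18, changed by -1.53 ± 0.11, and CCNE2, a cyclin of the start of S phase, by -1.25 ± 0.10. CDKN1C, the inhibitor p57, moved the other way, from 1.46, 1.61 and 1.87 FPKM at 0 h to 5.11, 6.68 and 5.27 at 72 h (1.33 ± 0.11, limma adjusted p = 2.71e-06). CCNG1, a p53 target, rose by 0.57 ± 0.07. Each of these 4 genes had 72 h libraries that did not overlap with its controls.

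The immediate early genes, which growth signals induce within minutes, were mostly higher. Of 26 tested members 16 rose and 4 fell, with a median of 0.38. EGR1, a zinc finger factor, stood at 34.02, 33.0 and 33.5 FPKM at 0 h and at 94.2, 95.8 and 78.9 at 72 h (1.39 ± 0.09, limma adjusted p = 6.42e-07). FOSB, a partner of JUN in AP-1, had 16.3, 15.9 and 15.3 FPKM against 53.5, 32.8 and 45.2 (1.39 ± 0.16). FOS itself had 171, 167 and 177 FPKM against 380, 270 and 312 (0.88 ± 0.15). All 72 h libraries lay above all controls for these 3 genes, and the 72 h values spread far more widely than the 0 h values.

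NR4A1, an orphan nuclear receptor, rose by 1.25 ± 0.14, although the RefSeq annotation used here types this entry as a pseudogene. FOSL1, the Fos relative FRA1, fell from 28.6 ± 2.83 to 14.0 ± 0.485 FPKM, a log2 change of -0.98 ± 0.08. Among 16 tested feedback genes of ERK signalling 7 were higher and 2 lower, with a median of 0.20. ETV4, an ETS factor induced by ERK, rose by 1.18 ± 0.08 and SPRY4, a Sprouty inhibitor of receptor signalling, by 0.98 ± 0.08. DUSP5, the nuclear phosphatase of ERK, changed by -0.96 ± 0.10.

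Lipid genes rose in several groups. In the pathway of cholesterol synthesis 18 of 19 tested members were higher, with a median of 1.29, and the summed level went from 475 ± 9.56 to 1228 ± 38.2 FPKM. The exception was GGPS1, which makes geranylgeranyl diphosphate on a side branch (-0.07). IDI1, which isomerises the isoprenoid building block, rose by 1.69 ± 0.07. Among 10 tested genes of sterol uptake and its control 9 were higher, with SCAP, the escort of the SREBP proteins, not called at 0.03.

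SREBF1 had 8.52, 8.44 and 7.85 FPKM against 33.6, 35.4 and 29.5, without overlap. The sterol efflux genes were mixed, with 3 of 6 tested members higher and 1 lower. APOE, the apolipoprotein that carries lipid out of cells, rose by 1.26 ± 0.10 from a low level of 0.827 ± 0.136 FPKM, and by 1.91 with a pseudocount of 0.1. ABCA1, the cholesterol exporter, rose by 0.68 ± 0.13, while SOAT1, which esterifies cholesterol for storage, changed by -0.48 ± 0.07.

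Of 16 tested genes of fatty acid synthesis 11 were higher and 2 lower, with a median of 0.55. SCD, the delta-9 desaturase, had 39.7, 40.8 and 36.3 FPKM at 0 h and 212, 206 and 221 at 72 h (2.42 ± 0.08, limma adjusted p = 1.35e-08). FADS2, the delta-6 desaturase, had 47.8, 48.4 and 48.6 FPKM against 143, 154 and 144 (1.59 ± 0.06). Neither desaturase had overlapping groups. The 2 that fell were the elongase ELOVL7 (-0.93 ± 0.13) and the desaturase family member FADS3 (-0.39 ± 0.06). ACLY, which supplies cytosolic acetyl-CoA to the same pathway, was not called, with 133 ± 1.29 FPKM at 0 h and 134 ± 8.31 at 72 h. ELOVL1 and HACD3, both of very long chain elongation, were not called either, at 0.13 and 0.11.

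The steps that assemble and store glycerolipid did not move together. Of 20 tested members 5 were higher and 6 lower, beside 23.0% and 22.5% of all genes, and 9 were not called. The sign of the list's median differed between ways of scaling the libraries. LPIN1, the lipin that makes diacylglycerol, had 2.46, 2.42 and 2.02 FPKM against 7.31, 7.14 and 7.64 (1.34 ± 0.08). PLIN2, the coat protein of lipid droplets, went the other way, from 34.1, 33.3 and 36.1 FPKM to 18.5, 17.6 and 19.2 (-0.87 ± 0.07, limma adjusted p = 2.07e-06). Both genes had groups without overlap. ACSL3, which activates fatty acids for lipid droplets, rose by 0.82 ± 0.08.

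Of 19 adipocyte genes measured, 9 were too low to be tested. Among the 10 tested 8 were higher and 2, the transcription factors KLF5 (-0.08) and EBF1 (0.18), were not called. FABP3, a fatty acid carrier of heart and muscle, rose by 2.41 ± 0.08, and CEBPD, an early adipogenic factor that inflammatory signals also induce, by 2.25 ± 0.23. CEBPD varied widely, with 19.1, 28.5 and 16.6 FPKM at 0 h and 109, 140 and 71.1 at 72 h. The list's median of 0.38 became 0.60 with a pseudocount of 0.1, and 0.90 over the 5 members with a mean FPKM of at least 5.

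Of 35 tested genes of insulin and PI3K signalling 6 were higher and 7 lower, beside 23.0% and 22.5% of all genes, and 22 were not called. INSR, the insulin receptor, was low and not called, with 1.22, 1.61 and 1.39 FPKM at 0 h and 1.28, 1.38 and 1.23 at 72 h (-0.06 ± 0.11, limma adjusted p = 0.662). IGF1R, the IGF1 receptor, had 22.1 ± 0.832 and 21.4 ± 0.625 FPKM (-0.04 ± 0.08, limma adjusted p = 0.674). These values give receptor transcripts per library and not receptor protein.

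The adaptors IRS1 (0.05 ± 0.09) and IRS2 (0.21 ± 0.10) and the kinase AKT2 (-0.09 ± 0.06) were not called either. PIK3R1, the regulatory p85 subunit of PI3K, rose from 4.57 ± 0.380 to 7.87 ± 1.41 FPKM (0.66 ± 0.14). SOCS3, a suppressor of cytokine and insulin receptor signalling, rose by 0.72 ± 0.06. FOXO1 (0.26 ± 0.09) and FOXO3 (0.32 ± 0.10) passed the test, but lost the call under 7 and 5 of 16 other settings. IGFBP5, an IGF binding protein, had 189, 187 and 182 FPKM at 0 h and 270, 149 and 259 at 72 h and was not called (0.23 ± 0.18). Without the second 72 h library, the lowest, its change was 0.50, which was called.

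Of 20 tested FOXO factors and fasting genes 12 were higher and 2 lower, with a median of 0.39. ERRFI1, a feedback inhibitor of EGF receptors, rose by 1.24 ± 0.17, PIK3IP1, an inhibitor of PI3K, by 1.03 ± 0.09, and SOD2, the mitochondrial superoxide dismutase, by 0.98. The members that fell were GADD45A, a DNA damage response gene (-0.50), and CAT, the catalase (-0.32). TXNIP, which restrains glucose uptake, was not called against 0 h, with 8.87, 8.45 and 9.72 FPKM at 0 h and 7.77, 17.9 and 9.72 at 72 h. Its second 72 h library alone lay above the controls.

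Among 13 tested genes of the IGF system 6 were higher and 2 lower. IGFBP4, a secreted inhibitor of IGF action, had 113, 110 and 105 FPKM against 200, 234 and 204 (0.95 ± 0.07, limma adjusted p = 1.62e-06). STC1, stanniocalcin 1, an inhibitor of the protease that cleaves IGFBP4, rose by 1.27 ± 0.21, or by 2.43 with a pseudocount of 0.1, from 0.28, 0.41 and 0.29 FPKM. IGFBP7 changed by -0.59 ± 0.12. The list's median of 0.23 fell to 0.11 without the third 72 h library.

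In glycolysis 16 of 20 tested members were higher and 1 was lower, with a median of 0.41. ENO2, an enolase, had 4.59, 4.0 and 4.16 FPKM at 0 h and 15.1, 25.6 and 18.5 at 72 h (1.95 ± 0.16). SLC16A3, the lactate exporter MCT4, had 22.4, 20.6 and 19.7 FPKM against 54.5, 99.8 and 57.1 (1.65 ± 0.19), and PFKFB3, which makes the activator of phosphofructokinase, rose by 0.99 ± 0.12. The second 72 h library was the highest for each of these genes. PFKL (0.35), PFKP (0.09) and TPI1 (0.27), phosphofructokinase isoforms and triosephosphate isomerase, were not called. Without that library 12 of 20 members were higher, with a median of 0.28. ALDOC, an aldolase isoform, changed by -0.47 ± 0.10. HK2, a hexokinase, was called at 0.50 ± 0.17, and its change without the second 72 h library was 0.31, which was not called.

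Other routes of glucose and carbon moved less evenly. Of 15 tested genes of glucose transport and glycogen 6 were higher and 3 lower, with a median of 0.21 that became 0.12 without the second 72 h library. In the pentose phosphate and folate list 8 of 16 were higher and 4 lower. PGD, which makes NADPH in the pentose phosphate pathway, rose from 76.1 ± 1.07 to 122 ± 7.54 FPKM (0.67 ± 0.06), and MTHFD2, a folate enzyme of mitochondria, changed by -0.72 ± 0.07. In the TCA cycle 7 of 28 were higher and 7 lower, beside 23.0% and 22.5% of all genes. IDH1, the cytosolic NADPH-producing isocitrate dehydrogenase, changed by 0.70 ± 0.06 and SUCLA2, a subunit of succinyl-CoA ligase, by -0.63 ± 0.07. Among 24 tested genes of fatty acid oxidation 10 were higher and 5 lower, with ACAA2, the last thiolase of the cycle, at 0.74 ± 0.11 and ETFDH, which passes its electrons to ubiquinone, at -0.54 ± 0.06.

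The respiratory chain has nuclear and mitochondrial genes. Of 55 nuclear genes of oxidative phosphorylation 11 were higher, 5 lower and 39 not called, with a median of 0.04 whose sign depended on the scaling. COX5B, a subunit of complex IV, rose by 0.51 ± 0.07, and CYCS, cytochrome c, changed by -0.34. Of 13 genes of mitochondrial DNA none was higher and 4 were lower, or 2 higher and 1 lower after median centring. ND4L, a complex I subunit, had 5016, 5002 and 5476 FPKM at 0 h and 3878, 3444 and 4021 at 72 h (-0.45 ± 0.09, limma adjusted p = 0.00201). The count of lower members was 1 without the first or without the second 72 h library and 7 without the third. Mitochondrial transcripts held 7.30%, 7.23% and 7.47% of the FPKM at 0 h and 6.46%, 6.13% and 7.33% at 72 h.

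Ribosomal protein genes were mostly higher and genes of ribosome assembly mostly lower or not called. Of 46 tested cytosolic ribosomal protein genes 44 were higher and none lower, with a median of 0.37, and under quantile normalisation 35 were higher with a median of 0.23. RPL27 (0.10) and RPS9 (0.25) were not called. RPS20, a protein of the small subunit, had 600, 524 and 608 FPKM at 0 h and 1476, 1642 and 860 at 72 h, so that the third 72 h library lay much closer to the controls. Processed copies of ribosomal protein genes can share reads with them, and these levels are uncertain to that extent. Of 36 tested genes of ribosome biogenesis 19 were lower and 1 was higher, with a median of -0.25. NCL, the nucleolin of the nucleolus, went from 199 ± 22.7 to 107 ± 14.5 FPKM (-0.89 ± 0.15), LYAR, a nucleolar growth regulator, changed by -0.91 ± 0.08, and POLR1D, a subunit of RNA polymerases I and III, rose by 0.34 ± 0.08.

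**Figure D2:**
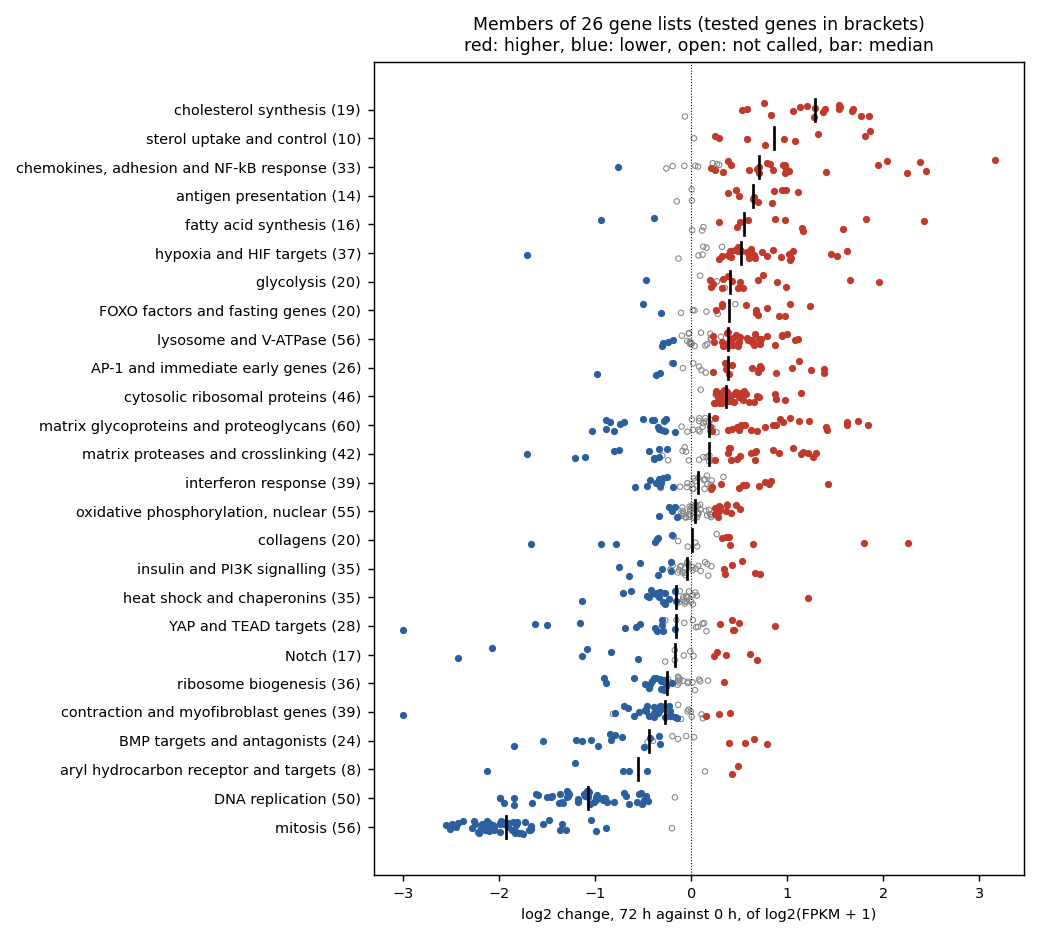
Each point is a tested gene of 26 gene lists, placed by its log2 change from 0 h to 72 h (horizontal axis), with red for higher, blue for lower and open circles for genes not called, a bar at each list's median and the number of tested genes in brackets. The mitosis list lies almost wholly below 0 with its median at -1.93, and the cholesterol synthesis list almost wholly above 0 with its median at 1.29.

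Targets and antagonists of BMP signalling, a branch of the TGF-beta family, were mostly lower. Of 24 tested members 14 fell and 4 rose, with a median of -0.44, or -0.80 over the 15 members with a mean FPKM of at least 5. The ligand GDF6 had 21.02, 25.2 and 20.6 FPKM at 0 h and 5.91, 5.72 and 4.76 at 72 h (-1.85 ± 0.11). ID1, the inhibitor of differentiation that BMP induces, had 96.9, 91.6 and 98.0 FPKM against 33.7, 34.8 and 28.4 (-1.54 ± 0.09, limma adjusted p = 3.08e-07). Neither gene had overlapping groups.

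The secreted BMP antagonists differed from each other. NOG, noggin, fell from 20.2 ± 1.43 to 8.26 ± 1.04 FPKM (-1.20 ± 0.09), whereas GREM1, gremlin, rose from 51.3 ± 2.71 to 89.3 ± 3.19 (0.79 ± 0.09). BAMBI, a decoy receptor, rose by 0.66 ± 0.09.

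In the Notch pathway 5 of 17 tested members were higher and 6 lower. JAG1, a ligand, had 35.1, 38.3 and 36.5 FPKM at 0 h and 9.02, 6.71 and 8.21 at 72 h (-2.07 ± 0.13, limma adjusted p = 3.31e-07). The target gene HES4 went from 8.52 ± 0.497 to 0.763 ± 0.121 FPKM (-2.43 ± 0.12). HES4 was below 1 FPKM in every 72 h library and was tested only through its 0 h and 48 h libraries. HEY1, another target, went from 1.48, 1.27 and 1.73 FPKM to 0.13, 0.13 and 0.12. Its log2 change was -1.14 ± 0.13, or -2.80 with a pseudocount of 0.1, and it was tested only through its 0 h libraries. DLL1, another ligand, was higher at a low level (0.443 ± 0.116 against 1.33 ± 0.389 FPKM), and NUMBL, a Numb family antagonist, rose by 0.61 ± 0.08.

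Genes of the aryl hydrocarbon receptor (AhR), a sensor of planar aromatic ligands, were lower in 5 of 8 tested cases and higher in 2. CYP1A1, the most inducible AhR target, had 3.37, 3.33 and 3.92 FPKM at 0 h and 0.06, 0 and 0.05 at 72 h (-2.13 ± 0.09, or -4.76 with a pseudocount of 0.1). CYP1B1 had 41.1, 41.6 and 44.3 FPKM against 18.7, 15.8 and 18.7 (-1.21 ± 0.10), and AHRR, the AhR repressor, itself an AhR target, changed by -0.71 ± 0.06. ARNT, the receptor's partner and also that of HIF, rose by 0.49 ± 0.06. CYP1B1 and AHRR fell, and the partner rose, without overlap of the groups. CYP1A1 reached 1 FPKM only in the 0 h libraries and was tested through them alone, so its fall is a description. AHR, the receptor itself, was the other higher member (0.43 ± 0.15), a call lost under 6 of 16 other settings.

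Genes of contraction and the myofibroblast state were lower in 25 of 39 tested cases and higher in 3, with a median of -0.28. ANKRD1 (ENSSSCG00000010461, chromosome 14, 102603777 to 102612857 in the same annotation), a stretch-responsive nuclear protein and a target of the YAP coactivator, had the lowest log2 change of the tested genes, from 63.9, 61.7 and 66.7 FPKM to 8.17, 5.60 and 7.92 (-3.00 ± 0.11, limma adjusted p = 1.79e-08). ACTN1, an actin crosslinker, had 816, 814 and 817 FPKM against 499, 458 and 458 (-0.79 ± 0.05). TES, a focal adhesion protein, changed by -0.70 ± 0.05 and MYLK, the myosin light chain kinase, rose by 0.29 ± 0.08, a call lost under quantile normalisation.

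Markers of pericytes and smooth muscle moved with this group: 7 of 8 tested markers were lower and none higher, and the 12 markers in the files summed to 5013 to 5216 FPKM at 0 h and 3211 to 3731 at 72 h. Of the skeletal muscle markers 3 of 4 tested were lower and 1 higher, with the sums given above. RGS5, a defining pericyte gene, was at most 0.04 FPKM, and the part of both marker lists in the contraction result was not tested. Of 28 tested YAP and TEAD targets 13 were lower and 6 higher, with a median of -0.16, or -0.24 without the second 72 h library. F3, tissue factor, had 108, 106 and 111 FPKM against 34.6, 32.3 and 36.4 (-1.63 ± 0.08).

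Among 26 tested TGF-beta genes 8 were higher and 8 lower. The ligands TGFB2 (26.6 ± 0.510 to 8.78 ± 0.941 FPKM, -1.50 ± 0.09) and TGFB3 (38.8 ± 1.21 to 11.7 ± 1.26, -1.65 ± 0.08) fell. In the Wnt list 9 of 36 were higher and 5 lower, beside 23.0% and 22.5% of all genes. The antagonist DKK2 changed by -2.28 ± 0.11. RSPO1, which enhances Wnt signalling, rose from 0.16, 0.06 and 0 FPKM to 1.34, 2.21 and 1.39.

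Of 21 tested growth factor receptors 7 were higher and 8 lower. PDGFRA, the PDGF receptor typical of fibroblasts, had 9.42, 9.17 and 9.44 FPKM at 0 h and 29.5, 45.4 and 34.4 at 72 h (1.83 ± 0.13, limma adjusted p = 1.26e-06). FGFR3, an FGF receptor, had 4.96, 4.42 and 4.95 FPKM against 1.12, 0.98 and 1.04 (-1.50 ± 0.08), and FLT1, a VEGF receptor, changed by -1.32. Groups did not overlap for PDGFRA or FGFR3.

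Matrix genes moved in both directions, and individual chains changed strongly. Of 20 tested collagen genes 7 were higher and 7 lower, and the sign of the median depended on the scaling. COL6A3, a chain of the beaded filament collagen VI, had 40.0, 42.9 and 37.4 FPKM at 0 h and 183, 210 and 192 at 72 h (2.25 ± 0.08, limma adjusted p = 1.46e-08). COL14A1, which sits on the surface of fibrils, rose by 1.80 ± 0.08, whereas COL5A3, a chain of the fibril-regulating collagen V, fell from 6.24 ± 0.327 to 1.28 ± 0.131 FPKM (-1.67 ± 0.08). Summed over the 31 collagen genes in the files, the level was 20133 ± 473 FPKM at 0 h and 18933 ± 281 at 72 h.

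Of 60 tested matrix glycoproteins and proteoglycans 26 were higher and 17 lower, with a median of 0.19. LUM, the fibril proteoglycan lumican, had 12.1, 13.01 and 12.95 FPKM against 44.1, 52.9 and 47.8 (1.84 ± 0.07). OGN, osteoglycin, of the same small leucine-rich family, rose by 1.74 ± 0.11. POSTN, periostin, rose by 1.63 ± 0.16, with 51.8, 87.8 and 63.3 FPKM at 72 h. SPP1, osteopontin, changed by -1.03 ± 0.07, and ACAN, the cartilage proteoglycan aggrecan, fell from 2.1, 2.12 and 2.09 FPKM to 0.85, 0.39 and 0.84.

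Proteases of the matrix and their partners were higher in 19 of 42 tested cases and lower in 11. MMP1, an interstitial collagenase, had 14.5, 13.7 and 12.8 FPKM against 31.7, 39.4 and 34.2 (1.30 ± 0.08), and PCOLCE, which speeds procollagen cleavage, rose by 1.26 ± 0.07. TIMP3, a matrix-bound protease inhibitor, had 118, 118 and 119 FPKM against 59.1, 40.0 and 54.7 (-1.21 ± 0.13). In the list of integrins and cadherins 6 of 23 were higher and 8 lower. ITGB5, a vitronectin receptor subunit, rose by 1.28 ± 0.09, and CDH2, N-cadherin, changed by -0.94 ± 0.10.

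Lysosomal genes were higher as a group, with 35 of 56 tested members higher and 4 lower and a median of 0.38. ASAH1, the acid ceramidase, had 24.0, 24.3 and 24.2 FPKM at 0 h and 54.1, 52.8 and 53.3 at 72 h (1.11 ± 0.05, limma adjusted p = 6.74e-08), with almost no spread within either group. CTSL, the protease cathepsin L, rose by 1.08 ± 0.17 and SGSH, a heparan sulfate sulfatase, by 0.99 ± 0.09. ATP6V1C1, a subunit of the proton pump, and GLB1, the lysosomal beta-galactosidase, both changed by -0.30.

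Of 34 tested autophagy genes 10 were higher and 2 lower, with a median of 0.06. The cargo receptors OPTN (38.4 ± 0.931 to 78.1 ± 8.43 FPKM) and SQSTM1, also called p62 (127 ± 4.59 to 233 ± 23.1 FPKM), rose. The MiT/TFE factors regulate lysosome genes and, in pigment cells, melanosome genes. Among 11 tested genes of this kind 6 were higher and 1 lower. GPNMB, a transmembrane glycoprotein of melanosomes and lysosomes, had 7.0, 6.41 and 5.85 FPKM against 15.6, 16.8 and 14.3 (1.16 ± 0.14). The factors MITF (0.12) and TFEB (0.02) and the folliculin partners FNIP1 (0.09) and FNIP2 (0.07) were not called. MLANA, another melanosome protein, rose from 2.15 ± 0.531 to 5.52 ± 0.876 FPKM, and SLC45A2, a transporter of pigment cells, by 0.53 ± 0.07 from 12.5 ± 0.988 FPKM. The pigment cell genes TYR, TYRP1, PMEL and DCT were each at most 0.23 FPKM in these 6 libraries. The 9 melanocyte markers summed to 17.1 to 19.4 FPKM at 0 h and 26.2 to 28.4 at 72 h, with 2 of 4 tested members higher and 1 lower, and their part in these results was not tested. The largest change of this marker list, 1.06, was that of MLANA, so the sum and the counts partly repeat values given above.

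Genes induced by hypoxia through HIF were higher in 30 of 37 tested cases, with 1 lower and a median of 0.52. TFRC, the transferrin receptor, had 39.8, 40.1 and 41.0 FPKM at 0 h and 117, 140 and 122 at 72 h (1.62 ± 0.11, limma adjusted p = 5.85e-07). DDIT4, an inhibitor of mTORC1, had 56.0, 54.2 and 51.7 FPKM against 133, 214 and 134 (1.52 ± 0.16). BHLHE40, a repressor that HIF and the clock both induce, rose by 1.03 ± 0.07. In these and in the glycolysis and chemokine lists the second 72 h library stood apart: its median change over hypoxia genes was 0.69, against 0.46 and 0.49 in the other two.

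Inflammatory genes were higher at 72 h, with a wide spread between libraries. Of 33 tested chemokine, adhesion and NF-kB response genes 24 were higher and 1 lower, with a median of 0.70 and library medians of 0.53, 0.93 and 0.55. Without the second 72 h library 22 were higher, with a median of 0.60. CCL2, which attracts monocytes, had 44.1, 37.5 and 36.8 FPKM at 0 h and 195, 253 and 213 at 72 h (2.45 ± 0.10, limma adjusted p = 2.26e-08).

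AMCF-II, a porcine neutrophil chemokine, had 2.56, 2.27 and 2.36 FPKM against 18.0, 62.3 and 22.3 (3.16 ± 0.34), and related chemokines could share reads with it. C3, the central complement component, had 0.11, 0.09 and 0.12 FPKM against 2.44, 11.6 and 3.42, a log2 change of 2.38 ± 0.36, or 4.51 with a pseudocount of 0.1. For both genes the lowest 72 h library exceeded every control, and the second 72 h library stood well above the others. C3 was tested only through its insulin libraries. PTX3, a secreted pattern recognition protein, was the member that fell (-0.76 ± 0.09). Of the blood and macrophage markers, 1 of 2 tested was higher, and the 12 in the files summed to 24.1 to 26.3 FPKM at 0 h and 26.5 to 29.2 at 72 h.

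Antigen presentation genes were higher in 11 of 14 tested cases with none lower and a median of 0.65. PSME1, an activator subunit of the proteasome, had 74.8, 72.1 and 75.3 FPKM against 154.5, 168 and 161 (1.11 ± 0.06), and PSMB9, a subunit of the immunoproteasome, had 1.59, 1.39 and 1.48 FPKM against 3.62, 3.66 and 4.52 (0.98 ± 0.10). TAP1, a peptide transporter subunit (0.00), and CALR (-0.15) and PDIA3 (0.01), chaperones of the peptide loading complex, were not called. Of 39 tested interferon response genes 11 were higher and 10 lower, beside 23.0% and 22.5% of all genes, with a median of 0.07. BST2, tetherin, rose by 1.42 ± 0.07 and IFI6 by 0.83 ± 0.06, while IFIT2 (-0.58) and SAMD9 (-0.46), both antiviral effectors, fell.

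In the lists of endoplasmic reticulum and amino acid stress, calls were about as frequent as over all genes (23.0% higher and 22.5% lower). Of 35 tested genes of the unfolded protein response 8 were higher and 8 lower, and of 41 ATF4 targets and amino acid supply genes 9 were higher and 10 lower, with medians whose signs depended on the scaling. NUPR1, a small stress-induced chromatin protein that ATF4 activates, stood out from its list, with 131, 129 and 128 FPKM at 0 h and 713, 617 and 676 at 72 h (2.36 ± 0.09, limma adjusted p = 2.19e-08). Heat shock proteins and chaperonins were lower in 17 of 35 cases and higher in 1, with a median of -0.16. HSPB6, a small heat shock protein of muscle, was the member that rose (1.22 ± 0.08), and HSPA4L, a nucleotide exchange factor for HSP70, changed by -1.13 ± 0.10.

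Antioxidant and glutathione genes were higher in 17 of 37 cases and lower in 8. SOD3, the secreted superoxide dismutase, had 3.60, 4.82 and 4.84 FPKM against 13.6, 16.2 and 12.1 (1.47 ± 0.11). MGST1, a membrane glutathione transferase, rose from 0.20, 0.08 and 0.21 FPKM to 1.91, 1.52 and 1.91, and TXNRD1, the cytosolic thioredoxin reductase, changed by -0.57 ± 0.07. Among 19 tested clock genes 6 were higher and 5 lower, with the repressors NR1D1 (-0.55 ± 0.07) and NR1D2 (-0.56) both lower. The repressor BHLHE40, given above with the hypoxia genes, is also in the clock list and had its largest change, a rise of 1.03 ± 0.07.

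**Figure D3:**
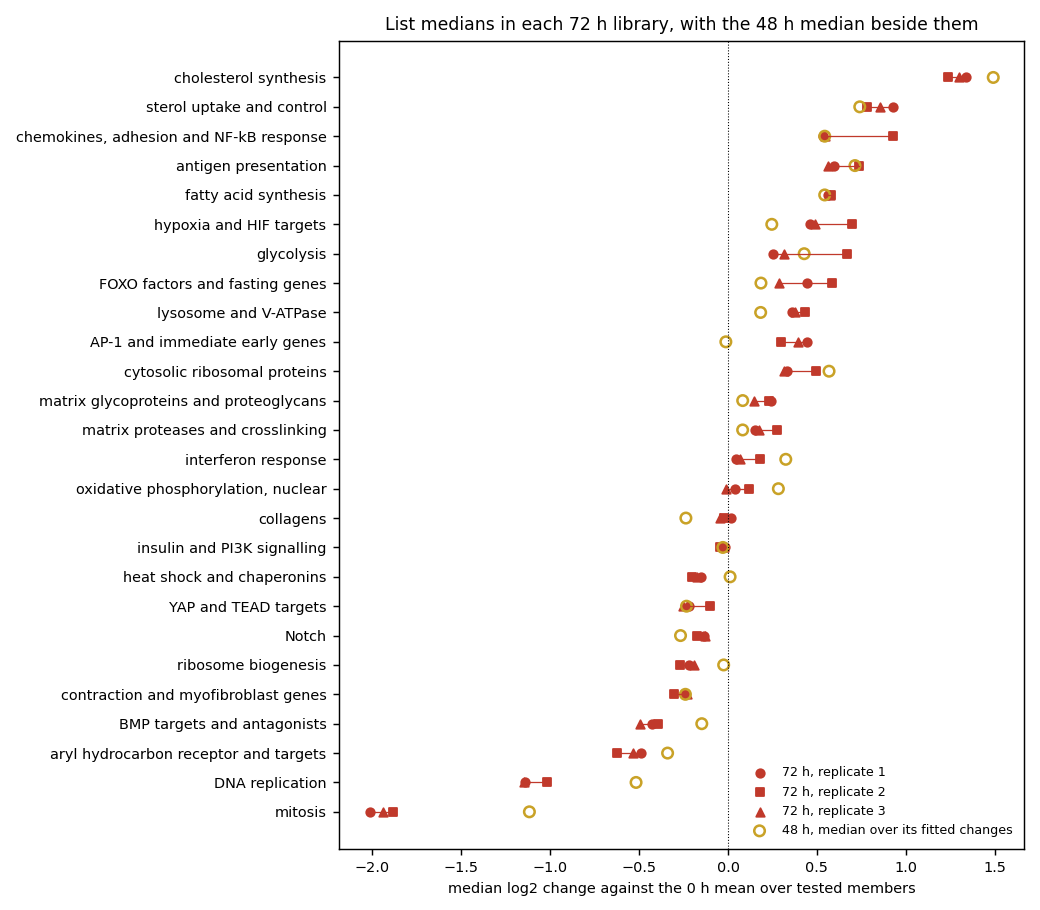
For the same 26 lists, the median log2 change of the tested members against the 0 h mean (horizontal axis) is drawn for each 72 h library (filled symbols joined by a line), beside the median change at 48 h (open circles). The second 72 h library (square) lies to the right of the others for chemokines at 0.93 and glycolysis at 0.67, and all 3 libraries lie close together for mitosis, between -2.01 and -1.88.

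Several genes with large changes belonged to no list. GHSR, the ghrelin receptor, had 0.64, 0.62 and 0.68 FPKM at 0 h and 6.95, 6.21 and 7.46 at 72 h (2.25 ± 0.10, limma adjusted p = 2.62e-08). RHCG, an ammonium transporter, had 1.08, 0.77 and 0.68 FPKM against 8.14, 8.15 and 7.06 (2.26 ± 0.11). DHRS3, a reductase that turns retinal into retinol, had 4.87, 4.0 and 3.73 FPKM against 26.3, 23.6 and 23.4 (2.29 ± 0.10). None of these overlapped between the groups, and GHSR was tested only through its insulin libraries. ENC1, an actin-binding protein, changed by -2.28 ± 0.12.

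In absolute FPKM the shifts fell on other genes. CLU, the secreted chaperone clusterin, had 541, 533 and 525 FPKM at 0 h and 1524, 1456 and 1468 at 72 h (1.47 ± 0.07, limma adjusted p = 7.56e-08). THBS1, thrombospondin 1, a matrix glycoprotein that YAP and TGF-beta induce, had 3292, 3373 and 3383 FPKM against 2171, 1782 and 2273 (-0.70 ± 0.12). The cytoskeletal actin ACTB changed by -0.28 ± 0.06 and ACTG1 by -0.33 ± 0.07, VIM, the intermediate filament vimentin, by 0.21 ± 0.06 and GAPDH, a glycolytic enzyme, by 0.38 ± 0.10. These 4 calls were lost when genes of low level were kept in the fit. Actin genes are near copies of each other, so that reads may be shared among them.

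Gene levels differed between 48 h and 72 h of insulin. At 72 h 1014 genes were higher than at 48 h (9.17%) and 1800 lower (16.3%), with 28 and 56 of these changed by at least 1 on the log2 scale. These shares of 9.17% and 16.3% are the background for list counts in this contrast. Higher genes made up 36.0% of these calls, 55.9% with equal FPKM sums, 48.6% under quantile normalisation and 46.7% after median centring. This contrast shares the 72 h libraries with the one above, and both times with insulin share their 0 h controls, so values are set side by side. Mitosis genes had a median change of -1.12 at 48 h against 0 h and -1.93 at 72 h, and 53 of 56 were lower at 72 h than at 48 h. Replication genes went from -0.52 to -1.08, with 44 of 50 lower at 72 h than at 48 h.

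Of 26 tested immediate early genes 12 were higher at 72 h than at 48 h and 5 lower, and 3 of them had large differences. FOSB had 2.03 ± 0.447 FPKM at 48 h and 43.8 ± 10.4 at 72 h, a difference of 3.87 ± 0.16 (limma, adjusted p = 3.30e-07). FOS had 26.4 ± 6.35 and 321 ± 55.4 FPKM (3.56 ± 0.15), and EGR1 9.89 ± 1.17 and 89.6 ± 9.33 (3.06 ± 0.09). Each of these 3 genes was thus above 0 h at 72 h and below it at 48 h. GPNMB had 3.30 ± 0.955 FPKM at 48 h, below both other times, and rose by 1.97 ± 0.14 to 72 h.

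Other genes fell from 48 h to 72 h. SST, the peptide hormone somatostatin, had 25.1 ± 1.62 FPKM at 0 h, 97.9 ± 4.15 at 48 h and 13.4 ± 2.49 at 72 h, lower at 72 h than at 48 h by 2.79 ± 0.11 and also lower than at 0 h (-0.87 ± 0.11). ID1 had 142 ± 16.3 FPKM at 48 h and 32.3 ± 3.44 at 72 h, a difference of -2.11 ± 0.09. ATOH8, a helix-loop-helix factor, had 3.62 ± 0.275 FPKM at 0 h, 4.31 ± 0.551 FPKM at 48 h and 0.847 ± 0.315 at 72 h (-1.53 ± 0.12), and SAMD11, a SAM domain protein, had 17.4 ± 2.44 and 5.77 ± 1.10 (-1.45 ± 0.12).

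**Figure D4:**
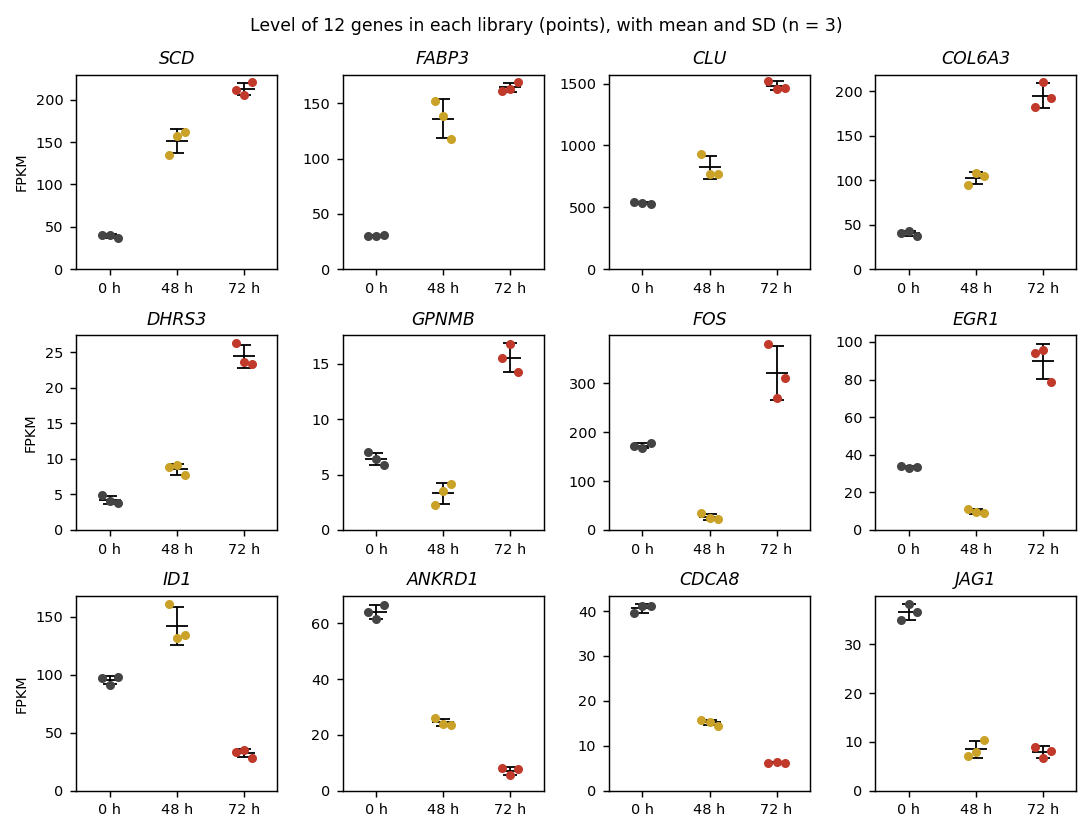
FPKM (vertical axes, each from 0) of 12 genes in every library at 0 h, 48 h and 72 h (points), with the mean and SD of 3 libraries. FOS, EGR1 and GPNMB are lowest at 48 h and highest at 72 h, ID1 is highest at 48 h, and COL6A3 and CLU rise at both steps, COL6A3 from 40.1 to 102 and 195 FPKM.

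Metabolic groups differed in how they stood at both times. Cholesterol synthesis had a median of 1.49 at 48 h and 1.29 at 72 h, with 7 of 19 members lower at 72 h than at 48 h and 2 higher. Fatty acid synthesis stood at 0.54 and 0.55, with 2 of 16 members changed each way, and SCD rose further, by 0.49 ± 0.08. Nuclear genes of oxidative phosphorylation had a median of 0.28 at 48 h, with 41 of 55 higher than at 0 h beside 27.6% of all genes in that contrast, and of 0.04 at 72 h, a sign that depended on the scaling, with 24 of 55 lower than at 48 h and none higher. Ribosomal protein genes stood at 0.57 and 0.37. Of 46 members 4 were called lower at 72 h than at 48 h, below the 16.3% of all genes. Ribosome biogenesis stood at -0.02 and -0.25, with 19 of 36 lower and 1 higher.

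Lysosomal genes stood at 0.18 at 48 h and 0.38 at 72 h, with 22 of 56 higher at 72 h than at 48 h and none lower. Hypoxia genes stood at 0.25 and 0.52, with 18 of 37 higher and none lower. Interferon response genes went from 0.32 to 0.07, and 23 of 39 were lower at 72 h than at 48 h. Collagens stood at -0.24 and 0.00, the latter with a sign that depended on the scaling, with 7 of 20 higher and 3 lower, and COL6A3 rose by 0.92 ± 0.08. TXNIP, not called against 0 h, had 3.77 ± 1.35 FPKM at 48 h and was higher at 72 h by 1.39 ± 0.27 (limma, adjusted p = 0.00436). INSR and IGF1R were higher at 72 h than at 48 h by 0.35 ± 0.11 and 0.47 ± 0.08.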

How the data were processed

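Total RNA of the fibroblasts was depleted of ribosomal RNA with Ribo-zero and made into libraries with the NEBNext Ultra RNA kit, per the labels' protocols. HISAT2 2.1.0, featureCounts 2.0.2, RSEM 1.2.28, DESeq2 and the build Sscrofa11.1 are named in the submitters' processing notes, with no role or order, and the sources used here give neither strandedness nor annotation release. Each library came as a table of FPKM for 30477 gene identifiers, as deposited by the authors; without counts, depth and counting error cannot be given, and an exact 0 is reported as listed. Symbols and positions were matched to RefSeq tables of Sscrofa11.1, which gave 9306 tested genes a position; no promoter or protein sequence was used, so the planned search for promoter motifs was not made.

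The 11063 genes that reached 1 FPKM in 3 or more libraries were analysed as log2(FPKM + 1) with limma 3.58.1 in R 4.3.3, using 1 mean per time, an intensity-dependent prior and Benjamini-Hochberg adjustment with a threshold of 0.05. All 9 libraries entered the fit and share 1 estimate of the spread. All 9 libraries were also simulated over 11063 genes, with each gene's mean over all libraries, the fitted spread and independent normal noise. At 72 h against 0 h, calls were made for 83% of 100 genes given a log2 change of 0.5. They were made for 98% of 100 given a change of 1, and for 6 of 10863 left unchanged. In the data 45.5% of genes were called and the second 72 h library differed over whole lists, so these rates need not hold there.

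The comparison, the gene lists and the genes named were chosen with earlier results of these data known. By rule, the genes eligible to be named were the 10 highest and 10 lowest changes without overlap, per list the 3 largest called changes and up to 2 against the majority, 16 genes of insulin signalling, the 8 highest and 8 lowest differences between 72 h and 48 h, the 6 largest rises and falls in FPKM, and members left out of a list's direction where 5 or fewer. Most of these 241 genes are described, some are not reported here, and 12 of the 16 insulin genes were tested. Replicate numbers do not pair the samples by the labels, and the closing section gives the fit with a replicate block. Alternatives were another pseudocount, other filters, 3 other scalings, library weights, the compared libraries alone, the block and each library left out.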

Additional observations from a re-analysis of the deposited data

Results flagged for a closer look

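Differences of at least 1 on the log2 scale between 72 h and 48 h of insulin, called by limma over all genes, drew attention to 19 of the genes eligible to be named, because the effect relative to the shared 0 h controls then differs between the 2 times. They are given as values of 72 h minus 48 h.

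Among transcription factors and signalling genes, FOSB differed by 3.872, FOS by 3.562 and EGR1 by 3.057, while ID1 differed by -2.107 and ATOH8 by -1.531. The thioredoxin inhibitor TXNIP differed by 1.388 and the ghrelin receptor GHSR by 1.464. SST differed by -2.794 and SAMD11 by -1.446.

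Mitosis genes lower at 72 h than at 48 h were CDCA3 at -1.417, CDC20 at -1.348, CDCA8 at -1.147 and PRC1 at -1.131. The YAP target ANKRD1 differed by -1.647. The melanosome proteins GPNMB and MLANA differed by 1.969 and 1.452, the ammonium transporter RHCG by 1.757 and the retinal reductase DHRS3 by 1.413.

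COX6B2, a testis-type subunit of cytochrome c oxidase, differed by -1.799, with 0.58, 4.45 and 0 FPKM at 72 h, and this call was lost under 5 other settings.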

How the results depend on the processing

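Of the 201 named genes called at 72 h against 0 h none changed sign under an alternative, and 178 kept the call under every alternative that gave a value. Many of these genes were named for the size of their change, and every alternative reuses the same libraries. These counts therefore do not carry over to all called genes. Several list medians near 0 changed sign with the scaling, those marked above and those of the TCA cycle, insulin and PI3K signalling and G1 lists. The medians of the interferon, autophagy, Wnt and clock lists stayed above 0 under every alternative. Higher genes became the majority of the 72 h against 48 h calls with equal FPKM sums. The number of genes higher by at least 1 at 72 h than at 0 h was 382 with a pseudocount of 0.1, and the number lower by at least 1 was 219 with a mean FPKM of at least 5. Genes higher at 72 h than at 48 h numbered 634 with the compared libraries alone and 1602 with library weights, and genes lower numbered 1127 with equal FPKM sums. Leaving out each library gave 589 to 1497 higher and 1138 to 2196 lower genes in that contrast; the low ends came without the second 48 h library (589 and 1138), and 624 and 651 higher genes were left without the first and the third 72 h library. Against 0 h these ranges were 2112 to 2482 higher and 1985 to 2331 lower. With the replicate block 2602 genes were higher and 2550 lower. Deviations of same-numbered 0 h and 72 h libraries correlated at 0.058, 0.077 and 0.183, too low to take the numbers as pairs. Each 0 h library nevertheless correlated best with the 72 h library of its own number. Same-numbered 48 h and 72 h libraries correlated at 0.036, 0.059 and 0.066, and no 48 h library correlated best with its own number. The block changed no count by more than 1.5 times. Depth is unknown, so low genes carry an unmeasured counting error.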
